A study of Danio rerio with 24 samples.

Results

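The 10 genes described here encode digestive enzymes that the acinar cells of the exocrine pancreas make and secrete: the trypsins *prss1*, *prss59.1* and *prss59.2*, the chymotrypsins *ctrb1* and *ctrl*, the carboxypeptidases *cpa1* and *cpa5*, the carboxyl ester lipases *cel.1* and *cel.2*, and the elastase *ela2*. They were taken by gene symbol from the deposited count tables, which together hold 26878 genes, and all 10 symbols were found. RNA-Seq of whole zebrafish larvae gave 24 libraries, 4 in each of 6 groups. Wild type larvae (WT) were set beside *elavl3:Gal4* larvae (Gal4 below; huC:gal4:gcry:RFP in the labels) and beside *elavl3:Gal4; UAS:fynY531F* larvae (*fynY531F* below; huc:gal4:gcry:RFP together with UAS:fynY531F:gcry:GFP). Each genotype was sampled at 3 and at 5 days post-fertilization (dpf), with 10 larvae pooled per library. The *elavl3* (huC) promoter drives the yeast activator Gal4 in neurons, and Gal4 then switches on a constitutively active Fyn kinase from its UAS, so that the driver and its red lens marker are shared by the Gal4 and *fynY531F* groups while WT larvae carry neither. The promoters named in the labels are those of neurons and of the lens, not of the pancreas.

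Acinar cells store digestive enzymes in secretory granules, most of the proteases as inactive zymogens, and release them through the pancreatic duct into the gut. In the gut, enteropeptidase activates trypsin, and trypsin activates the other zymogens. Zebrafish acinar cells differentiate before the larva begins to feed, while it still lives on its yolk, and trypsin, elastase and carboxypeptidase transcripts are standard markers of their maturation. Because RNA came from whole larvae, fewer acinar cells and less enzyme RNA per cell cannot be told apart in any of these values.

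Several of the genes lie side by side in the genome, in positions given here for the GRCz11 build. *prss1* (ENSDARG00000042993) is on chromosome 16 from 25080764 to 25085327 on the minus strand. *prss59.1* (ENSDARG00000079274) lies on the plus strand of the same chromosome from 26012569 to 26013851, and *prss59.2* follows from 26017360 to 26018694, with 3508 bases and no other gene of the tables between them. *cpa1* (chromosome 25, 18448186 to 18454016) and *cpa5* (18459924 to 18470695) are neighbours on the minus strand, and *cel.2* (chromosome 21, 11385031 to 11393979) and *cel.1* (11401247 to 11411365) are neighbours on the plus strand. *ela2* is on chromosome 8 from 21376290 to 21381734, and *ctrb1* on chromosome 7 from 35075847 to 35079299, beside 2 further chymotrypsin genes. The sources used here do not say how reads shared by near-identical neighbours were counted, so the split within each neighbouring pair is uncertain.

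Total counts per library ran from 11386498 to 30549128. *fyna*, a zebrafish gene for Fyn kinase, was used to check the labels. Its level was 824 to 975 CPM (counts relative to library size, scaled with TMM factors) in *fynY531F* larvae at 3 dpf against 69.0 to 91.1 CPM in both control groups, and at 140 to 271 CPM at 5 dpf against 76.1 to 92.7 CPM. One library stood apart. Gal4 replicate 3 at 5 dpf had a median correlation with its own group of 0.872 across genes, where the other 23 libraries had 0.983 to 0.992. The TMM factor of Gal4 replicate 3 was 0.612 against 0.941 to 1.09 in the others, which raises its CPM relative to library totals. In TMM-scaled CPM, most of the digestive enzymes were highest of the group in this library. By library totals, *prss1*, *prss59.1*, *prss59.2* and *ctrl* were still highest in it, at 3710, 2882, 2902 and 1112 CPM. The other Gal4 libraries at 5 dpf had at most 2633, 1840, 1565 and 737 CPM. On the same scale, *cpa5*, *cel.1*, *cel.2* and *ela2* were not highest in it, at 1166, 263, 208 and 227 CPM. The highest Gal4 libraries then had 1451, 375, 236 and 278 CPM.

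*ctrb1* hardly registered. It had 0 counts in each of the 12 libraries at 3 dpf, where 3 counts over the 4 libraries of a group would be 0.0450 to 0.0582 CPM. At 5 dpf its 4 libraries gave 0, 4, 3 and 2 counts in WT, 1, 4, 2 and 0 in Gal4, and 0, 0, 1 and 1 in *fynY531F*. It therefore passed the filter on low counts in no comparison, and the tests below concern at most 9 of the 10 genes. The neighbouring chymotrypsin *ctrb.3* (zgc:112160 in the tables) gave 71, 80 and 75 counts over the 4 libraries at 5 dpf in the same order of groups.

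The other 9 transcripts took a far larger share of the libraries at 5 dpf than at 3 dpf. All 10 genes together took 0.0123 to 0.0198% of a library's counts in WT at 3 dpf and 0.600 to 0.770% at 5 dpf. In Gal4 the share was 0.0100 to 0.0158% at 3 dpf and 0.544 to 1.25% at 5 dpf, with the highest value in replicate 3. In *fynY531F* it was 0.00251 to 0.00488% at 3 dpf and 0.295 to 0.603% at 5 dpf, with the highest value in replicate 1.

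**Figure D1:**
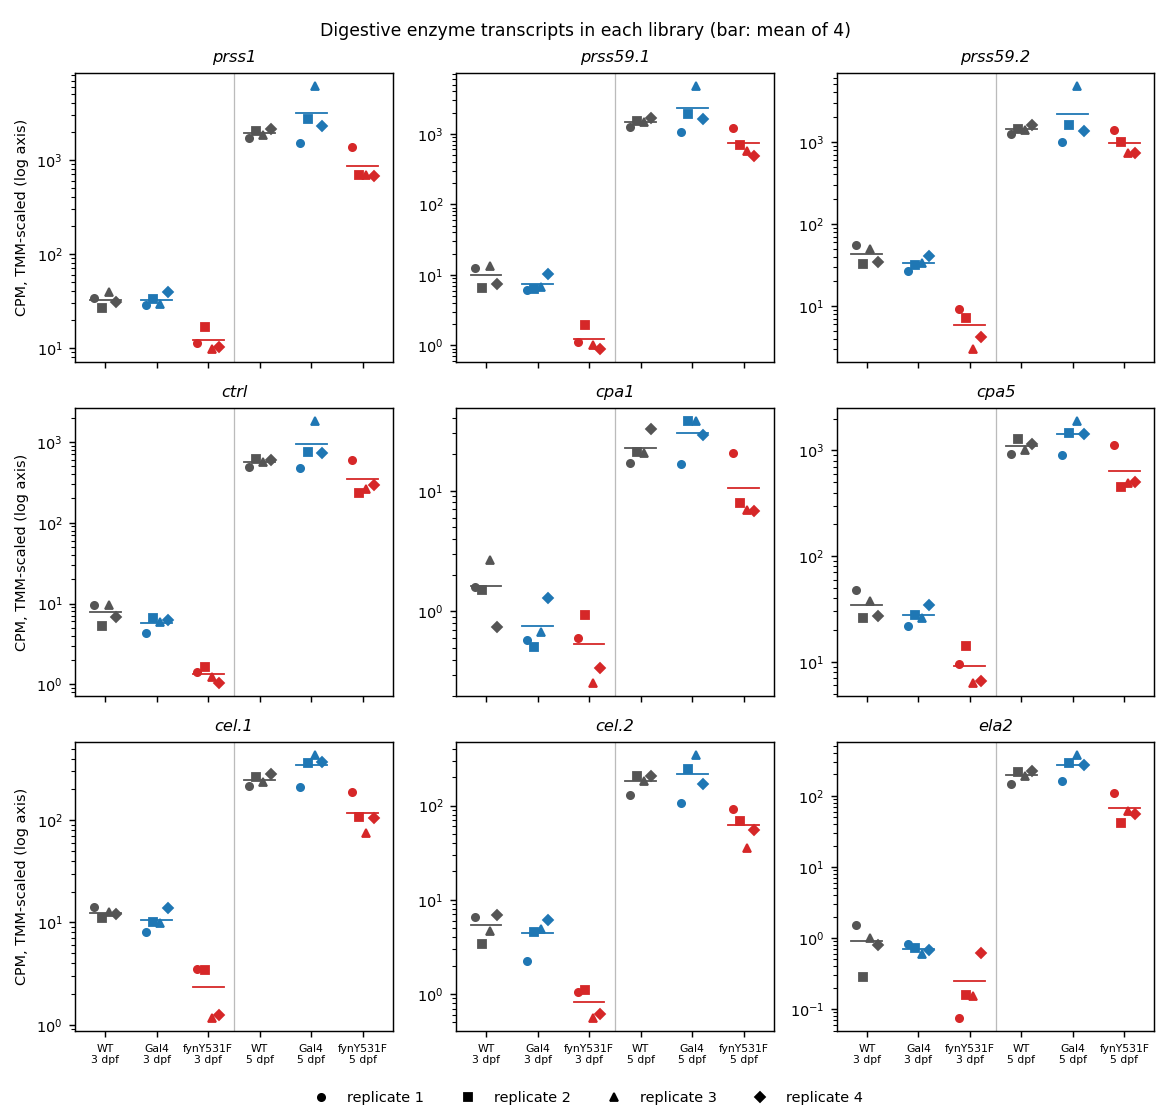
Level of 9 digestive enzyme genes in each of 24 libraries, in CPM with TMM factors on a log axis; columns are the 6 groups, colours the genotypes, symbols the replicate numbers and bars the means of 4. Every gene is higher in all 5 dpf libraries than in all 3 dpf libraries. *fynY531F* replicate 1 is the highest of its group at 5 dpf for all 9 genes. Gal4 replicate 3, whose low TMM factor of 0.612 raises its CPM, is the highest of its group for 8 of 9.

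Between genes, levels are compared per kilobase of gene length. In WT at 5 dpf, *prss1* led with 2217 CPM per kb, followed by *prss59.1* at 1747, *prss59.2* at 1621, *cpa5* at 809, *ctrl* at 309, *ela2* at 218, *cel.1* at 125, *cel.2* at 98.9 and *cpa1* at 15.3 CPM per kb. Each gene was above the next in 4 of 4 libraries, although the ranges of *prss1*, *prss59.1* and *prss59.2* overlapped in that order, as did those of *cel.1* and *cel.2*. At 3 dpf the order differed at the top and at the bottom: *prss59.2* led in WT with 48.7 CPM per kb, then *prss1* with 37.4, *cpa5* with 25.6 and *prss59.1* with 11.7, and *ela2* was last of the 9 with 1.02 CPM per kb, with a range that overlapped that of *cpa1*. In *fynY531F* at 5 dpf, *prss59.2* (1091 CPM per kb), *prss1* (983) and *prss59.1* (873) overlapped, and each was above the next in 3 of 4 libraries.

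From 3 to 5 dpf, trypsin transcripts rose in every genotype. *prss1*, the trypsin gene with the highest level per kilobase in WT at 5 dpf, stood at 33.9, 26.7, 39.0 and 30.7 CPM in the younger WT libraries and at 1701, 2049, 1840 and 2136 CPM in the older ones. In Gal4 it went from 28.8, 33.2, 29.4 and 39.3 CPM to 1496, 2730, 6065 and 2296 CPM. In *fynY531F* it went from 11.4, 16.8, 9.75 and 10.2 CPM to 1372, 695, 684 and 673 CPM. No library of one age reached the range of the other. The increases were 5.90 ± 0.12 (log2 fold change ± SE), 6.60 ± 0.50 and 6.16 ± 0.31 in these genotypes, or 59.5-, 97.0- and 71.7-fold, with adjusted p of 2.19e-13, 7.44e-05 and 4.32e-07 (edgeR's quasi-likelihood test, Benjamini-Hochberg over all genes tested).

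*prss59.1*, a further trypsin, had the largest estimated increase of the 9 in *fynY531F*. It stood at 1.13, 1.96, 1.02 and 0.893 CPM there in the 3 dpf libraries, and 5 dpf libraries had 1204, 699, 574 and 492 CPM. The change was 9.24 ± 0.39 on the log2 scale, 606-fold (adjusted p = 1.68e-07, edgeR). In WT it rose from 12.4, 6.41, 13.3 and 7.45 CPM to 1270, 1514, 1460 and 1696 CPM, by 7.23 ± 0.19 (150-fold), and in Gal4 by 8.32 ± 0.60 (319-fold). Its neighbour *prss59.2* began higher, at 55.0, 32.7, 49.4 and 34.3 CPM in WT and at 9.12, 7.12, 3.00 and 4.19 CPM in *fynY531F*. It reached 1230, 1450, 1401 and 1619 CPM in WT and 1376, 997, 738 and 723 CPM in *fynY531F*. Its increases were thus smaller, 5.06 ± 0.16 in WT, 6.05 ± 0.57 in Gal4 and 7.39 ± 0.37 in *fynY531F*.

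The chymotrypsin gene *ctrl* rose from 9.63, 5.20, 9.67 and 6.78 CPM to 495, 606, 564 and 600 CPM in WT. In *fynY531F* it rose from 1.43, 1.64, 1.22 and 1.03 CPM to 599, 234, 260 and 293 CPM. The increases were 6.18 ± 0.15 and 8.03 ± 0.39, with 7.36 ± 0.51 in Gal4. *ela2*, which encodes an elastase and cleaves proteins after other residues than trypsin does, was near the limit of detection at 3 dpf, with 21, 4, 14 and 11 counts in WT, 10, 23, 7 and 9 in Gal4 and 1, 2, 3 and 9 in *fynY531F*. At 5 dpf it stood at 145, 219, 188 and 223 CPM in WT, at 162, 288, 372 and 276 CPM in Gal4 and at 110, 41.8, 60.5 and 56.5 CPM in *fynY531F*. It rose by 7.74 ± 0.23, 8.59 ± 0.33 and 8.03 ± 0.48 in the 3 genotypes.

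Carboxypeptidases remove residues from the C-terminal end of peptides. *cpa5*, the higher of the pair per kilobase, rose from 26.2 to 47.6 CPM (lowest and highest of 4) to 927 to 1281 CPM in WT, by 4.99 ± 0.18, and from 6.25 to 14.0 CPM to 450 to 1129 CPM in *fynY531F*, by 6.17 ± 0.40. *cpa1* was the lowest of the 9 per kilobase at 5 dpf, at 17.0, 20.9, 20.7 and 32.2 CPM in WT and 20.7, 7.93, 6.86 and 6.78 CPM in *fynY531F*. It also had the smallest increases in WT and in *fynY531F*, 3.80 ± 0.27 and 4.35 ± 0.51, against 5.34 ± 0.41 in Gal4. The carboxyl ester lipases, which hydrolyse cholesteryl esters and other lipid esters in the presence of bile salts, rose by similar amounts: *cel.1* by 4.33 ± 0.10, 5.04 ± 0.28 and 5.72 ± 0.39 in WT, Gal4 and *fynY531F*, and *cel.2* by 5.07 ± 0.19, 5.60 ± 0.46 and 6.27 ± 0.37.

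In all, 9 of 9 genes tested rose with age in *fynY531F*, where 27.0% of 19691 genes tested rose; 9 of 9 in Gal4, where 15.4% rose; and 9 of 9 in WT, where 29.3% rose. Median changes over the 9 genes were 6.27, 6.05 and 5.07 on the log2 scale, against a median over all genes tested of 0.00267, 0.0157 and -0.00329. For each gene, all 5 dpf libraries were above all 3 dpf libraries, as were 24.3%, 19.0% and 25.8% of all genes in the same order of genotypes. Each of these calls held in every alternative that gave a value. The age comparisons share libraries with the genotype comparisons below.

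**Figure D2:**
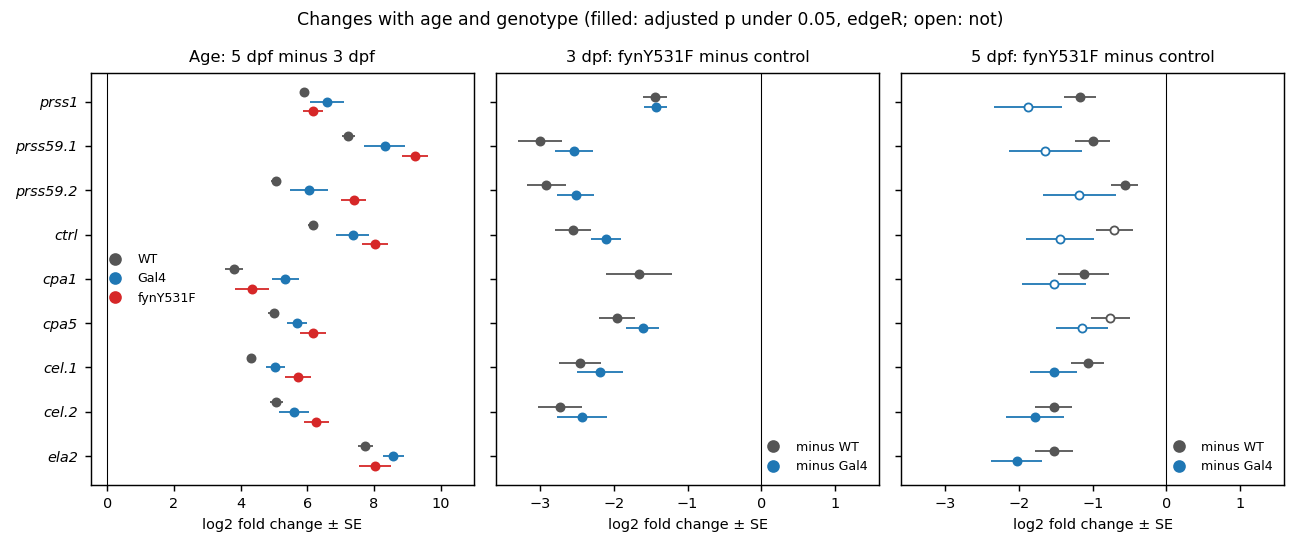
Log2 fold change with its SE for 9 digestive enzyme genes: left, 5 dpf minus 3 dpf in each genotype; middle and right, *fynY531F* minus each control at 3 and at 5 dpf. Filled points passed an adjusted p under 0.05 (edgeR). The age changes lie between 3.80 and 9.24, and all genotype differences lie below 0, with larger SE against Gal4 at 5 dpf. Genes with no point in the middle panel did not pass the filter on low counts in that comparison.

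At 3 dpf, *fynY531F* larvae had less of every digestive enzyme transcript that could be tested, against both controls. Compared with Gal4, 7 of 7 genes tested were lower, where 9.73% of 19200 genes were. Compared with WT, 8 of 8 were lower, where 14.8% of 19332 genes were. Both comparisons share the same *fynY531F* libraries. The medians over the genes tested were -2.19 and -2.51 on the log2 scale, and those over all genes 0.00217 and -0.00717.

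The trypsins *prss59.1* and *prss59.2* differed most. *prss59.1*, at 0.893 to 1.96 CPM in *fynY531F*, was at 6.01, 6.28, 6.83 and 10.1 CPM in Gal4, a difference of -2.54 ± 0.26 (5.82-fold lower, adjusted p = 3.82e-05, edgeR), and -3.00 ± 0.30 against WT. *prss59.2* was at 26.5, 31.9, 33.3 and 40.5 CPM in Gal4, and lower by 2.52 ± 0.25 on the log2 scale (a difference of -2.52, 5.72-fold), with -2.91 ± 0.27 against WT. For *prss1* the difference was smaller, -1.43 ± 0.16 against Gal4 and -1.44 ± 0.16 against WT, 2.70- and 2.72-fold. In none of these did libraries of the groups overlap.

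Chymotrypsin and lipase transcripts lay between these. *ctrl* was at 4.36 to 6.57 CPM in Gal4 and at 1.03 to 1.64 CPM in *fynY531F*, a difference of -2.11 ± 0.20. *cel.1* stood at 8.15, 10.1, 9.79 and 13.9 CPM in Gal4 and at 3.54, 3.44, 1.17 and 1.24 CPM in *fynY531F*, a difference of -2.19 ± 0.32. *cel.2* was at 2.22 to 6.17 CPM and 0.559 to 1.1 CPM, a difference of -2.43 ± 0.33. *cpa5* differed by -1.61 ± 0.22 against Gal4 and -1.95 ± 0.24 against WT. Against WT, *ctrl*, *cel.1* and *cel.2* differed by -2.56 ± 0.24, -2.46 ± 0.28 and -2.73 ± 0.30.

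*cpa1* and *ela2* had too few reads at 3 dpf for firm statements. *cpa1* gave 7, 16, 8 and 17 counts in Gal4 and 8, 12, 5 and 5 in *fynY531F*, did not pass the filter in that comparison, and differed by -1.65 ± 0.45 from WT (adjusted p = 0.0163, edgeR), with overlapping libraries. *ela2* passed the filter in neither comparison. The 7 genes other than *cpa1* and *ela2* had libraries that did not overlap in both comparisons, where 12.8% and 15.3% of all genes had lower, non-overlapping libraries. Against Gal4, 7 genes were called in each alternative that gave a value, of 9 tested with DESeq2, with no filter and with all 6 groups in one fit, where *cpa1* and *ela2* were tested and not called. Against WT, between 7 and 9 genes were called.

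Markers of neighbouring organs were also counted at 3 dpf, from lists described further below. Of all genes tested, 9.73% were lower than in Gal4 and 14.8% lower than in WT. Of 16 enterocyte genes tested, 6 were lower and 1 higher than in Gal4, and 8 lower and 3 higher than in WT. *vil1* (villin of the brush border) was at 21.8 to 26.7 CPM in *fynY531F* against 40.7 to 58.0 CPM in Gal4 and 57.4 to 67.7 CPM in WT, and *anpepb* (an aminopeptidase) at 6.04 to 8.74 CPM against 15.9 to 22.8 and 19.5 to 25.7 CPM. Both were lower in every *fynY531F* library than in any control library. Among the genes that were higher, *apoa4b.2* (an apolipoprotein) had a mean of 190 CPM, against 117 CPM in WT and 147 CPM in Gal4. The summed level of the enterocyte list at 3 dpf was 1988 to 3013 CPM in *fynY531F*. It was 1671 to 1899 CPM in WT and 1985 to 2257 CPM in Gal4, so the list as a sum was not lower. The largest part of this sum was the apolipoprotein gene *apoa1a*, with means of 1163 CPM in *fynY531F*, 644 CPM in WT and 956 CPM in Gal4. The sum therefore says little about genes of low level in the list, such as *vil1* and *anpepb*. Of 14 liver genes, 2 were lower and 0 higher than in Gal4 (0 called without Gal4 replicate 4 or *fynY531F* replicate 3, 1 without *fynY531F* replicate 1 and 4 without replicate 2), and 4 lower and 1 higher than in WT. Of 12 islet genes, 1 was lower and 1 higher than in either control, with 1 called against Gal4 without Gal4 replicate 4 or *fynY531F* replicate 3. The lower counts of the islet list, and of the liver list against Gal4, lie near the shares of all genes. The part of these markers in the enzyme differences at 3 dpf was not tested.

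The Gal4 driver alone was not accompanied by a called difference. Between Gal4 and WT at 3 dpf, 0 of 9 genes were called (edgeR; 2 of 9 at an unadjusted p under 0.05, and 0 by DESeq2), where 4.79% of 19279 genes were called in either direction. The differences ran from -1.15 ± 0.41 (*cpa1*) to -0.00062 ± 0.12 (*prss1*), with those of the other 7 genes between -0.46 and -0.26. At 5 dpf, 0 of 9 were called again (0 at an unadjusted p under 0.05, 0 by DESeq2), where 0.0508% of 19671 genes were, and the estimates ran from 0.26 ± 0.33 (*cel.2*) to 0.74 ± 0.38 (*ctrl*). Without Gal4 replicate 3, the estimate at 5 dpf was -0.11 for *prss59.2* and -0.0516 for *cel.2*, neither called.

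At 5 dpf, after the rise in all genotypes, levels in *fynY531F* were still below both controls by point estimate for all 9 genes, but fewer passed the test. Against WT, 7 of 9 genes were lower, where 14.3% of 19776 genes were. Against Gal4, 3 of 9 were lower, *cel.1*, *cel.2* and *ela2*, where 2.60% of 19746 genes were. Median differences over the 9 genes were -1.07 and -1.53, against medians over all genes of -0.000174 and -0.00547.

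*ela2*, barely detected at 3 dpf, was among the genes that differed most. Its libraries did not overlap with those of either control, and it differed by -1.53 ± 0.26 from WT (2.89-fold lower, adjusted p = 0.00163, edgeR) and by -2.03 ± 0.35 from Gal4 (4.08-fold lower, adjusted p = 0.0142). *cel.2* stood at 91.8, 69.1, 35.0 and 54.4 CPM in *fynY531F*, at 129, 206, 180 and 207 CPM in WT and at 107, 245, 340 and 170 CPM in Gal4. It differed by -1.53 ± 0.25 and -1.78 ± 0.40. *cel.1* stood at 188, 107, 74.8 and 105 CPM, at 216, 262, 235 and 284 CPM and at 210, 361, 430 and 371 CPM in the same groups, and differed by -1.07 ± 0.23 and -1.53 ± 0.32. Both lipase genes were lower in every *fynY531F* library than in any control library.

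Among the trypsins, *prss1* differed by -1.17 ± 0.22 from WT (adjusted p = 0.00282, edgeR) and by -1.88 ± 0.46 from Gal4 (adjusted p = 0.0573), without overlap in either case. *prss59.1* differed by -1.0 ± 0.24 and -1.64 ± 0.50, and *prss59.2* by -0.57 ± 0.19 (adjusted p = 0.0435) and -1.18 ± 0.50. For *prss59.2* the highest *fynY531F* library, 1376 CPM in replicate 1, lay within the WT range. *cpa1* differed by -1.12 ± 0.34 from WT (adjusted p = 0.0319) and by -1.52 ± 0.43 from Gal4 (0.0861). *ctrl* and *cpa5* missed the threshold against WT, with -0.71 ± 0.25 (adjusted p = 0.0593) and -0.76 ± 0.27 (adjusted p = 0.0526), and against Gal4, with -1.45 ± 0.46 (0.122) and -1.15 ± 0.36 (0.113). Libraries of 5 genes did not overlap with WT and those of 4 with Gal4, where 14.8% and 10.3% of all genes had lower, non-overlapping libraries.

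Single libraries weighed on these counts. They also weighed on the calls over all genes: with age in Gal4, 3000 genes rose in the main fit and 5834 without Gal4 replicate 3. The shares of all genes given above belong to the main fits. Shares under the alternatives were not set beside the counts that follow. *fynY531F* replicate 1 was the highest of its group in 9 of 9 genes, with *prss1* at 1372 CPM against 673 to 695 CPM in the others, and *cpa5* at 1129 CPM against 450 to 507 CPM. Without it, 9 of 9 genes were lower than in WT, with a *ctrl* difference of -1.11 and a *cpa5* difference of -1.19. Against Gal4, 4 genes were then called. The 7 calls against WT became 5 without WT replicate 2, 3 or 4 or *fynY531F* replicate 2, 3 or 4, 6 without WT replicate 1, 5 with all 6 groups in one fit, 6 with DESeq2, 8 with the replicate number as a block and 9 with no filter. The call of *prss59.2* against WT held in 5 of these 14 alternatives and that of *cpa1* in 7, while those of *prss1*, *cel.1*, *cel.2* and *ela2* held in 14 of 14. Without Gal4 replicate 3, in which *prss1* was at 6065 CPM against 1496 to 2730 CPM in the other 3 libraries, 6 of 9 genes were lower than in Gal4: *prss1* by a difference of -1.35, *prss59.1* by -1.03, *cpa1* by -1.43, *cel.1* by -1.41, *cel.2* by -1.48 and *ela2* by -1.85. Leaving out Gal4 replicate 2 or 4, or *fynY531F* replicate 2, left 1 call against Gal4, and leaving out *fynY531F* replicate 3 or 4 left 0. DESeq2 called 8 of 9 lower than in Gal4, a fit of all 6 groups together 9 of 9, and the fit with the replicate number as a block 0 of 9, so the direction did not change in any of these while the number called did.

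The rise from 3 to 5 dpf was compared between genotypes in its own test, as the difference between 2 age changes on the log2 scale. It was larger in *fynY531F* than in WT for 4 of 9 genes, where 6.23% of 20340 genes had a higher change: *prss59.2* by 2.33 ± 0.37 (adjusted p = 0.000576, edgeR), *prss59.1* by 2.00 ± 0.48 (0.0114), *ctrl* by 1.84 ± 0.47 (0.0169) and *cel.1* by 1.39 ± 0.42 (0.0400). The call of *cel.1* held in 13 of 22 alternatives, with an adjusted p of up to 0.114 in the others. The remaining 5 estimates were 1.2 ± 0.55 for *cel.2*, 1.17 ± 0.42 for *cpa5*, 0.54 ± 0.71 for *cpa1*, 0.27 ± 0.90 for *ela2* and 0.26 ± 0.31 for *prss1*. With all 6 groups in one fit, 2 genes were called. Against Gal4, 0 of 9 were called (edgeR; 0 at an unadjusted p under 0.05, 0 by DESeq2), where 4.15% of 20358 genes were called in either direction. Those estimates ran from -1.02 (*cpa1*) to 1.29 (*prss59.2*, adjusted p = 0.289, edgeR), and 1 gene was called without Gal4 replicate 3. Between Gal4 and WT, 0 of 9 were called (4 at an unadjusted p under 0.05, 0 by DESeq2), where 0.188% of 20177 genes were, with estimates from 0.52 to 1.55.

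The ratio of counts between neighbouring genes of the same family was examined after these levels had been seen, and no comparison passed the correction. In WT, *prss59.1* had 0.227 times the counts of *prss59.2* at 3 dpf (log2 ratios of -2.14, -2.34, -1.89 and -2.20 in the 4 libraries) and 1.04 times at 5 dpf (0.05, 0.06, 0.06 and 0.07). In Gal4 the ratio was 0.220 and 1.1. In *fynY531F* it was 0.228 at 3 dpf and 0.755 at 5 dpf (log2 ratios of -0.19, -0.51, -0.36 and -0.55). The ratio thus shifted toward *prss59.1* by 2.2, 2.32 and 1.73 on the log2 scale with age, without overlap between ages. At 5 dpf the 4 *fynY531F* libraries were below all WT libraries, by -0.46, and below all Gal4 libraries, by -0.54. These 5 differences each had p = 0.0286 in an exact permutation test, 2-sided, the smallest that 4 against 4 libraries can give, and an adjusted p of 0.0600 over the 21 ratio comparisons made, so none passed the threshold.

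Among the other neighbours, *cel.1* to *cel.2* fell from a log2 ratio of 1.25 ± 0.39 (SD, n = 4) in WT at 3 dpf to 0.48 ± 0.18 at 5 dpf, without overlap, and stood at 0.93 ± 0.21 in *fynY531F* at 5 dpf, overlapping with WT. *cpa1* had between 0.0158 and 0.0587 times the counts of *cpa5* in the 6 groups. The log2 ratio of *cpa1* to *cpa5* in *fynY531F* went from -4.09 ± 0.29 at 3 dpf, on 30 *cpa1* counts in all, to -5.99 ± 0.23 at 5 dpf. No ratio comparison passed an adjusted p of 0.05, and the lowest adjusted p was 0.0600 (exact permutation test).

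**Figure D3:**
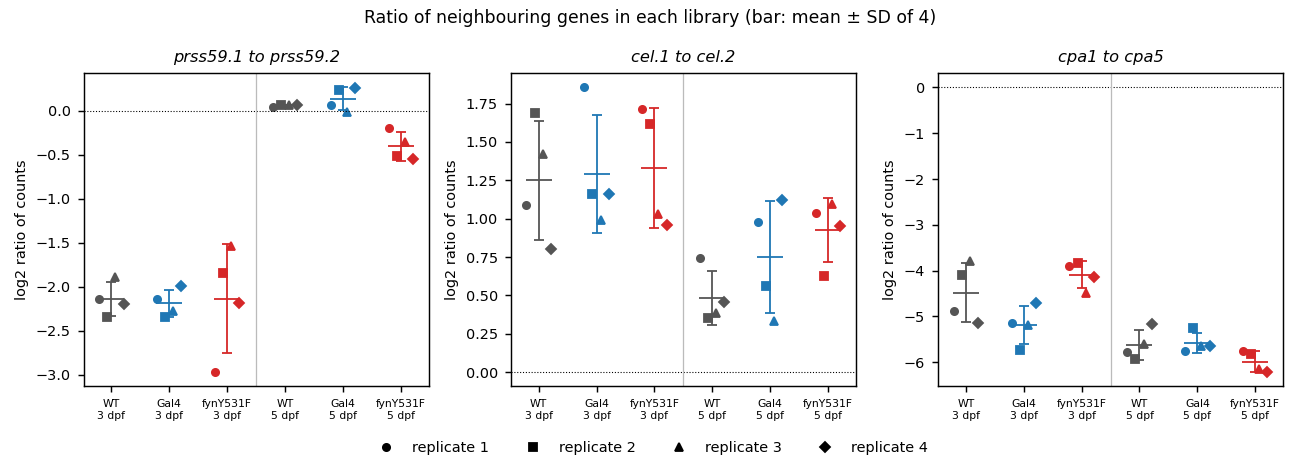
Log2 ratio of counts between neighbouring genes in each library (0.5 counts added to each gene), with mean ± SD of 4 per group; colours are genotypes and symbols replicate numbers. At 3 dpf *prss59.1* to *prss59.2* lies between -2.97 and -1.54 in all libraries. At 5 dpf it lies near 0 in both control groups, and *fynY531F* libraries run from -0.55 to -0.19.

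Other secretory products of acinar cells were read beside the digestive enzymes, from a list of 36 symbols of which 27 genes were matched. In *fynY531F*, 19 of 21 tested rose with age and 1 fell, and in WT 18 of 20 rose and 1 fell. Of all genes tested, 27.0% rose in *fynY531F* and 29.3% in WT. At 5 dpf, 12 of 22 were lower and 2 higher than in WT, and 6 of 21 were lower than in Gal4, with medians of -0.95 and -1.65. Of all genes at 5 dpf, 14.3% were lower than in WT and 2.60% lower than in Gal4. No share of higher genes was set beside the 2. Without *fynY531F* replicate 1, 18 of 22 were lower than in WT. Against Gal4, 11 of 22 were lower without Gal4 replicate 3, 3 without Gal4 replicate 2 or 4, and 1 without *fynY531F* replicate 2, 3 or 4. The shares of all genes here are those of the main fits, and none was set beside the counts with a library left out. At 3 dpf, 8 of 10 tested were lower than in WT and 8 of 12 than in Gal4, the latter 5 without *fynY531F* replicate 3 or 4. Of all genes at 3 dpf, 14.8% were lower than in WT and 9.73% lower than in Gal4.

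The 6 genes of that list lower than in both controls at 5 dpf include classes found among the 10 enzymes as well as other classes. *amy2a*, pancreatic amylase, stood at 92.4 ± 48.1 CPM (SD, n = 4) in *fynY531F* against 356 ± 59.0 CPM in WT and 544 ± 257 CPM in Gal4. *pla2g1b*, a phospholipase, stood at 16.5 ± 6.36 CPM against 47.4 ± 5.44 and 84.2 ± 60.4 CPM, and the carboxypeptidases *cpa4* and *cpb1* at 56.1 ± 26.3 and 32.9 ± 13.3 CPM against 173 ± 37.7 and 79.2 ± 12.8 CPM in WT. The elastase-like *ela2l* stood at 24.7 ± 9.81 CPM against 75.9 ± 13.6 CPM in WT. zgc:92590 differed most, at 3.70 ± 2.40 CPM against 81.7 ± 27.5 CPM in WT and 233 ± 177 CPM in Gal4, a difference of -4.51 ± 0.39 and -5.99 ± 0.71. By the smallest p for the rise with age in *fynY531F*, the list was led by the elastase gene *cela1.4* (ENSDARG00000043171), which rose by 6.59 ± 0.32, by the elastase *ela3l*, which rose by 9.53 ± 0.49, and by the amylase *amy2al2* (zgc:92137 in the tables), which rose by 8.31 ± 0.43.

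Transcription factors of the exocrine pancreas changed in both directions with age. Of 13 genes, 11 were tested with age in *fynY531F*, of which 3 rose and 5 fell, with a median of -0.29. Of all 19691 genes tested there, 27.0% rose and 4986 fell, so the number that rose is near the share of all genes. *sox9b*, a factor of pancreatic duct and progenitor cells that is also used in many other tissues, rose by 1.01 ± 0.10, while *rbpja*, the Notch pathway factor, and *xbp1*, a factor of secretory and stressed cells, fell by 0.49 and 0.36 on the log2 scale. *ptf1a*, which specifies acinar cells and also acts in the nervous system, stood at means of 2.87 to 4.36 CPM in the 6 groups. Against Gal4 at 5 dpf, 0 of 11 were called (edgeR; 2 at an unadjusted p under 0.05, 2 by DESeq2), and against WT 2 of 12 were higher and 1 lower. In that comparison with WT, 14.3% of all genes were lower. Without Gal4 replicate 3, 2 were called against Gal4, and without *fynY531F* replicate 2 at 3 dpf, 5 were called with age. At 3 dpf, 2 of 11 were lower and 0 higher than in Gal4, and 3 lower and 2 higher than in WT, the latter 5 calls becoming 2 without *fynY531F* replicate 1 and 3 without its replicate 2 or 4 or WT replicate 2, 3 or 4. Of all genes at that age, 9.73% were lower than in Gal4 and 14.8% lower than in WT. *bhlha15*, a factor of acinar cell maturation, was at 0.548 to 0.914 CPM in *fynY531F* against 1.63 to 2.30 CPM in Gal4 and 1.01 to 2.14 CPM in WT. *nr5a2*, a nuclear receptor of acinar cells and of the liver, was at 17.6 to 20.5 CPM against 24.4 to 29.7 and 24.9 to 28.4 CPM. Both were lower in every *fynY531F* library than in any control library, and both were called in both comparisons. The 2 factors higher than in WT at 3 dpf were *sox9b*, by 0.47 ± 0.07, and *rbpja*, by 0.20 ± 0.06. Neither was called against Gal4. The summed level of the list at 3 dpf was 608 to 633 CPM in *fynY531F*, 602 to 632 CPM in WT and 606 to 654 CPM in Gal4. Most of this sum was *xbp1*, with means of 372, 373 and 364 CPM in the same order of groups. The sum therefore says little about factors of low level such as *bhlha15* and *nr5a2*.

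Genes of enzyme activation and secretion control, 7 matched of 11 symbols, changed in part. Of these, *serpina1* and *serpina1l* are also counted in the liver list. With age in *fynY531F*, 4 of 6 tested rose and 1 fell, where 27.0% of all genes rose. The protease inhibitor *serpina1l* rose by 0.61 ± 0.13 and *ccka*, which encodes the hormone cholecystokinin, a stimulus of enzyme release, by 0.60 ± 0.20, while the peptide receptor *vipr1b* changed by -1.03 ± 0.27. At 5 dpf, 0 of 6 were called against Gal4 (edgeR; 1 at an unadjusted p under 0.05, 1 by DESeq2) and 1 was higher and 2 lower than in WT. Of all genes at 5 dpf, 14.3% were lower than in WT. The 5 calls with age became 2 or 3 when any of 6 libraries was left out, and 1 gene was called against Gal4 without Gal4 replicate 3. *tmprss15*, the gene of enteropeptidase, had few reads and was at 0 in WT and Gal4 at 3 dpf. At 5 dpf its means were 0.848 CPM in WT, 0.335 CPM in Gal4 and 0.0945 CPM in *fynY531F*. The *fynY531F* libraries, at 0 to 0.208 CPM, lay below those of WT, at 0.685 to 1.16 CPM. They overlapped with those of Gal4, at 0.0782 to 0.598 CPM.

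Markers of neighbouring digestive organs moved with the enzymes in part. Of all genes tested, 27.0% rose with age in *fynY531F*. At 5 dpf, 14.3% of all genes were lower than in WT and 2.60% lower than in Gal4. These shares are those of the main fits and do not apply to counts with a library left out. Of 18 enterocyte genes, 11 rose and 1 fell with age in *fynY531F*, and at 5 dpf 10 of 18 were lower and 3 higher than in WT, and 7 of 18 lower than in Gal4, or 13 called without Gal4 replicate 3. *vil1* stood at 137 ± 12.2 CPM against 366 ± 30.5 CPM in WT at 5 dpf, *slc15a1b* (a peptide transporter) at 54.7 ± 14.5 against 249 ± 19.5 CPM, *fabp2* (fatty acid binding) at 7.97 ± 0.40 against 36.9 ± 7.98 CPM and *anpepb* at 71.3 ± 11.9 against 141 ± 16.6 CPM. *mttp*, *apoa4b.2* and *cdx1b* were also lower than in both controls at 5 dpf. The summed level of the list at 5 dpf was 2381 to 3360 CPM in *fynY531F* and 2906 to 3344 CPM in WT. The largest part of this sum in *fynY531F* was *apoa1a* (an apolipoprotein), at 942 CPM against 369 CPM in WT.

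Of the liver list at 5 dpf, 8 of 14 genes were higher and 1 lower than in WT. The median was 0.58 on the log2 scale, against -0.000174 over all genes. The share of all genes that were higher was not set beside the count, so nothing about the list is read from the count. *cp* stood at 346 ± 30.2 against 99.6 ± 11.3 CPM and *fga* at 256 ± 28.3 against 123 ± 15.8 CPM, both also higher than in Gal4. Against Gal4, 9 of the list were called without Gal4 replicate 3 and 1 without any other library. The gene lower than in WT was *fabp10a*, at 150 ± 45.1 against 364 ± 60.4 CPM (-1.28 ± 0.20, adjusted p = 0.00124, edgeR). *fabp10a* was not called against Gal4 (-1.97 ± 0.50, adjusted p = 0.0614, edgeR), and at 3 dpf it differed from WT by -1.09 ± 0.21. *ttr*, *fabp10a* and *rbp4* led the rise with age in *fynY531F*, by 4.38 ± 0.25, 4.21 ± 0.30 and 0.81 ± 0.17. Of 13 islet genes tested at 5 dpf, 5 were lower and 0 higher than in WT, or 3 called without WT replicate 3 or 4, and *isl1* alone was lower than in Gal4 (0 called when any library but Gal4 replicate 3 or 4 was left out, 5 without Gal4 replicate 3), at 49.5 ± 3.91 CPM against 82.3 ± 14.2 CPM. With age in *fynY531F*, 2 of 12 islet genes rose and 4 fell, where 27.0% of all 19691 genes rose and 4986 fell. Among the islet genes that fell were *isl1*, *pax6b* and *neurod1*, which neurons also use. Without *fynY531F* replicate 4 at 5 dpf, 3 were called. *ins*, the defining gene of beta cells, stood at means of 0.423 to 1.29 CPM in the 6 groups, and *insb* was at 0 in both control groups at 5 dpf. The part of gut, liver and islet markers in the enzyme values was not tested.

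In the controls the same lists were also counted with age. Of all genes tested, 3000 of 19534 rose and 2029 fell in Gal4, and 5734 of 19589 rose and 5618 fell in WT. In Gal4, 18 of 20 other acinar products rose and 1 fell, 1 of 12 transcription factors rose and 2 fell, 1 of 6 activation and secretion genes rose and 0 fell, 1 of 13 islet genes rose and 1 fell, 13 of 18 enterocyte genes rose and 0 fell, and 3 of 14 liver genes rose and 6 fell. In WT, 2 of 11 transcription factors rose and 5 fell, 1 of 6 activation and secretion genes rose and 0 fell, 6 of 13 islet genes rose and 3 fell, 14 of 18 enterocyte genes rose and 2 fell, and 4 of 14 liver genes rose and 7 fell. The digestive enzymes and the other acinar products were the lists with the highest medians in all genotypes.

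**Figure D4:**
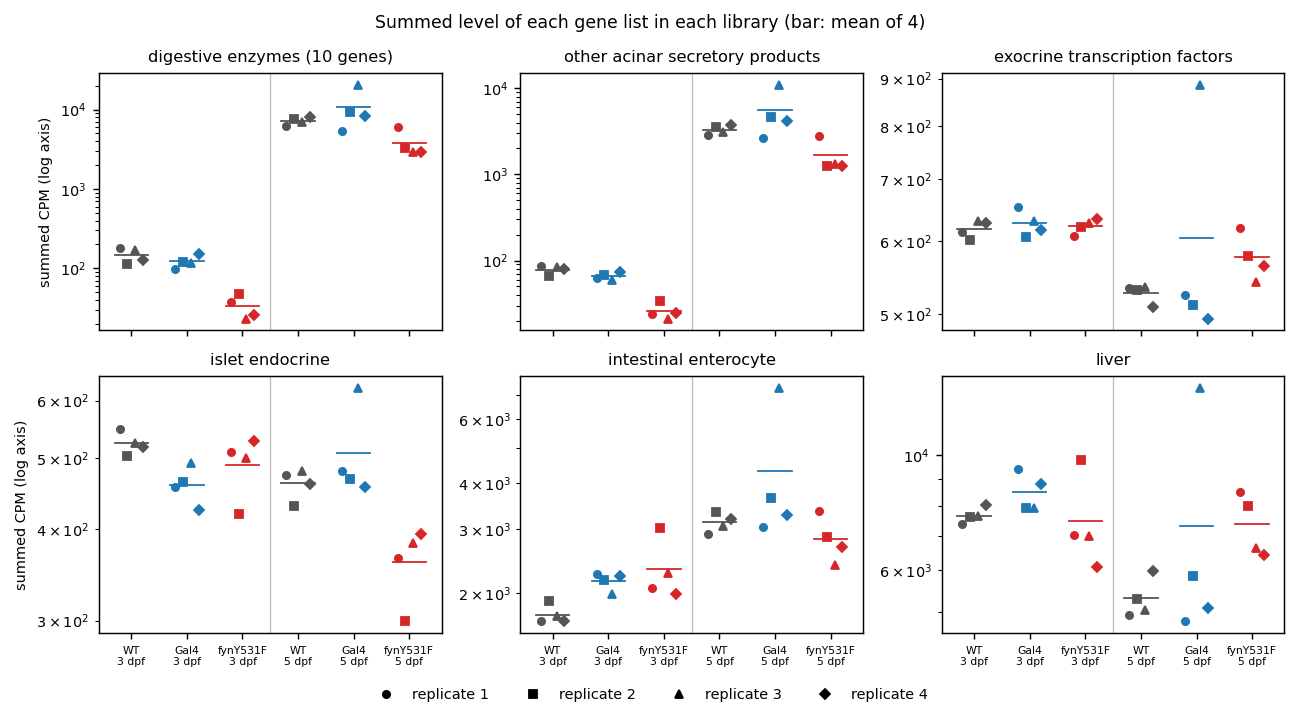
Summed CPM of 6 gene lists in each library on log axes that differ between panels; colours are genotypes, symbols replicate numbers and bars means of 4. The 10 digestive enzymes and the other acinar products rise by over an order of magnitude from 3 to 5 dpf, and the remaining lists do not. Gal4 replicate 3 at 5 dpf is the highest library of its group in all 6 panels, with CPM raised by its TMM factor of 0.612.

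In TMM-scaled CPM, both libraries that weighed on the 5 dpf comparisons were also high in other lists. The TMM factor of 0.612 of Gal4 replicate 3 raises all of its sums. By library totals, the 10 enzymes took 1.25% of its counts, against 0.544 to 0.906% in the other Gal4 libraries at 5 dpf. Sums of the other lists by library totals were not compared. In Gal4 replicate 3 the summed levels were 20425 CPM for the 10 enzymes, 10926 CPM for the other acinar products, 7341 CPM for enterocyte genes, 13508 CPM for liver genes and 625 CPM for islet genes, where the other 3 libraries of the group had at most 9393, 4605, 3649, 5858 and 481 CPM. In *fynY531F* replicate 1 the enzymes summed to 6091 CPM against 2912 to 3300 CPM in the other 3, the other acinar products to 2826 against 1238 to 1336 CPM, and enterocyte genes to 3360 against 2381 to 2843 CPM, while islet genes, at 365 CPM, were within the range of the others, 299 to 394 CPM. The part that the make-up of these 2 libraries had in the genotype differences was not tested beyond leaving them out.

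Across the 24 libraries, the genes outside the 10 whose log2 CPM followed the mean standardized profile of the 9 detected enzymes most closely were zgc:92041 (*cela1.6*, an elastase; Pearson r = 0.996), *sycn.2* (syncollin of zymogen granules; 0.995), *ela3l* (0.995), *cyp2ad2* (a cytochrome P450; 0.993) and *slc15a1a* (a peptide transporter; 0.991). The first 3 are on the list of other acinar products. *slc15a1a* stood at 2.58, 1.74 and 0.473 CPM at 3 dpf and 78.7, 108 and 26.1 CPM at 5 dpf (means of WT, Gal4 and *fynY531F*). The 9 enzymes themselves had r of 0.982 (*cpa1*) to 0.998 with their mean, to which each contributes. These coefficients describe libraries that fall into 2 ages and share the large difference between them.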

How the data were processed

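Poly(A) RNA of pooled whole larvae was sequenced and counted by a service provider. HISAT2 2.0.5, StringTie 1.3.3b, featureCounts 1.5.0-p3 and the GRCz11 build are named in the submitters' processing notes; those notes and the methods leave strandedness and the treatment of reads with several matches unstated. The authors deposited raw counts per Ensembl gene in 9 tables of pairs of groups; 144 columns of normalized and FPKM values, 27 tables of subsets, and the columns of fold changes and p-values from the authors' own comparisons were not used. Of 1205864 count entries present in more than one table, 0 differed, and a gene absent from a table was taken as 0 (13752 entries).

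Library totals ran from 11386498 to 30549128 counts. Each comparison was fitted on its own groups with edgeR 4.0.16 (R 4.3.3; filterByExpr, TMM, quasi-likelihood F test, 2-sided), with Benjamini-Hochberg adjustment over all genes tested and a threshold of 0.05. SE is the log2 fold change over the square root of F. Levels are CPM with TMM factors over 24 libraries. Ratios added 0.5 counts to each gene and were tested with scipy 1.17.1. p-values measure the spread between pools of larvae. The genes and lists were chosen with earlier results of these data known. The rule was to name all 10 genes in every comparison; for Gal4 against WT and for age changes against Gal4 or between Gal4 and WT, most are given as ranges. Of each further list, up to 3 called genes with the smallest p for age in *fynY531F* and those called against both controls at 5 dpf were named, and 5 genes by likeness; *tmprss15*, *ptf1a*, *ins*, *insb*, *apoa1a*, *bhlha15*, *nr5a2* and *ctrb.3* were named after their values were seen, as were the sums by list. Alternatives were DESeq2 1.42.0, DESeq2-type size factors, library totals alone, no filter, all 6 groups in one fit, the replicate number as a block, and each library left out; for the ratios, 1 count in place of 0.5. Shares of all genes called are those of the main fits and not of the alternatives. The code was tested on simulated data. Sequences of these genes are not used here.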

Additional observations from a re-analysis of the deposited data

Results flagged for a closer look

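Among 54 sets of 4 libraries (9 genes in 6 groups), 6 had a highest library set off from the others. In these, the gap was a larger part of the whole range than Dixon's 95% critical value allows. The 9 genes were measured in the same libraries and followed a common profile, so the sets are not independent. No rate by chance is therefore set beside the count. In *fynY531F* at 5 dpf, replicate 1 was set off for *prss1* (gap over range of 0.969), *cpa1* (0.917), *cpa5* (0.915) and *ctrl* (0.838). In Gal4 at 5 dpf, replicate 3 was set off for *prss59.2* (0.833), at 4745 CPM. In *fynY531F* at 3 dpf, replicate 4 was set off for *ela2* (0.850), at 0.618 CPM on 9 counts.

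The rise from 3 to 5 dpf differed between *fynY531F* and WT, by the test of the difference itself, for *prss59.1* (2.00 on the log2 scale), *prss59.2* (2.33), *ctrl* (1.84) and *cel.1* (1.39, a call that held in 13 of 22 alternatives). All 4 had begun lower than WT at 3 dpf in *fynY531F*, by differences of -3.00 (*prss59.1*), -2.91 (*prss59.2*), -2.56 (*ctrl*) and -2.46 (*cel.1*). The other genes tested at that age were lower too: *cel.2* by -2.73, *cpa5* by -1.95, *cpa1* by -1.65 and *prss1* by -1.44. The part of the level at 3 dpf in the larger rise was not tested. No explanation was tested.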

How the results depend on the processing

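The count of digestive enzymes called changed by over 1.5 times in 3 comparisons. Against Gal4 at 5 dpf, 3 calls became 8 with DESeq2, 9 with all 6 groups in one fit, 0 with the replicate number as a block, and 0 to 6 with a library left out. For the age change against Gal4, 0 calls became 0 to 1 with a library left out, and for that against WT, 4 became 2 with all 6 groups in one fit. The cause was not tested. Shares of all genes called under these alternatives were not set beside the counts. Of 192 counts of called enzymes under alternatives, pooled over all comparisons, 181 stayed within 1.5 times and 11 did not. Most of those 11 belong to the comparison against Gal4 at 5 dpf, so the pooled number does not describe that comparison. Of the other acinar products, 6 calls against Gal4 at 5 dpf became 13 with DESeq2, 15 with all 6 groups and 1 with the block, and 14 against WT became 7 with all 6 groups.

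Values changed sign only where they were not called. Between Gal4 and WT at 3 dpf, *prss1* was at 0.00611 with all 6 groups in one fit and 0.00690 with the block, and ran from -0.10 to 0.10 with a library left out, and *ela2* from -0.65 to 0.0165. At 5 dpf, *prss59.2* ran from -0.11 to 0.85 and *cel.2* from -0.0516 to 0.48. For the age change against Gal4, *prss1* ran from -0.75 to 0.11 and *ela2* from -0.88 to 0.32, and against WT from -0.0639 to 0.47 and from -0.0791 to 1.17.

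Same-numbered libraries showed little shared deviation: in each of 9 comparisons at most 2 of 4 pairs correlated over 0.1. Between ages in *fynY531F* the correlations ran from 0.00861 to 0.192. The main fits took the numbers as names only, but 4 pairs per comparison are too few to exclude a pairing. The block otherwise left counts of 9, 9 and 9 for age, 7 and 8 at 3 dpf, 8 against WT at 5 dpf, and 4 for the age change against WT. At 3 dpf, few reads limit *cpa1*, *ela2* and *ctrb1*.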
